A study of Solanum lycopersicum with 8 samples.

Results

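Bins that anchored at least 3 chromatin loops, called multi-loop bins here, were examined in a Hi-C loop list from tomato inflorescences. Hi-C ligates and sequences cross-linked DNA ends that lie close together in the nucleus. A loop is a pair of 5 kb bins on 1 chromosome that the authors' caller listed, and each of the 2 bins is an anchor. The bins were chosen by the number of listed loops that start or end in them, so that number is given as a description and is not tested. The list held 499 multi-loop bins, or 3.20% of the 15570 anchor bins.

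The tissue was the inflorescence of the anantha-e1546 mutant of Solanum lycopersicum, in the background of cultivar M82, with 2 Hi-C replicates from different plants harvested 10 weeks after sowing. The mutation is carried by both replicates, and no wild-type inflorescence is part of this loop list. The series also holds 6 leaf ATAC-seq replicates of genotype M82, which are not used here. The loop list is a single list with no values per replicate, no contact count and no strength of a loop, so no spread between replicates and no depth can be given. Intervals below are exact 95% binomial intervals, order-statistic intervals for medians, or normal approximations for differences between 2 shares. They cover counting error only and treat bins and loops as independent, although neighbouring bins share loops. Intervals over pairs of loops also treat pairs at the same bin as independent, which they are not, so these can be too narrow. No difference below was tested, because the loops that define the multi-loop bins are also the loops described.

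Chromatin loops bring distant sequence close together, and in plants they often join active genes with each other or with distal regulatory sequence. Plants lack CTCF, the protein that holds many animal loops in place. A bin in several loops may contact its partners in the same nucleus or each of them in different cells, and Hi-C on pooled nuclei does not tell these apart. The anantha inflorescence is a cauliflower-like mass that keeps forming meristems in place of flowers. ANANTHA encodes an F-box protein related to UNUSUAL FLORAL ORGANS of Arabidopsis. The loop list names no assembly, so positions are those of the list, 1-based, and no gene, sequence or leaf peak was assigned to them.

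Most multi-loop bins stood just above the limit. The list held 421 bins in 3 loops, 65 in 4, 11 in 5, 1 in 6 and 1 in 7. Just below the limit stood 2484 bins in 2 loops, and 12587 bins were in 1 loop. Multi-loop bins held 1591 loop ends, or 8.31% of all loop ends, and 1457 of 9573 loops (15.2%) had an anchor in at least 1 of them. The number of such bins rested in part on the shortest and the closest loops. Without the 10 kb loops, 231 of the 499 were still in 3 or more loops, and 224 were when loops within 2 bins of each other at both ends were merged.

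Multi-loop bins were unevenly spread over the chromosomes. Chromosome 1 had the most, 86, followed by chromosome 7 with 60 and chromosome 2 with 58. Chromosomes 3 and 8 had 47 each, chromosome 4 had 41, chromosome 9 had 37, chromosomes 5 and 6 had 36 each, and chromosome 11 had 26. Chromosomes 10 and 12 had 16 and 9. As a share of anchor bins, chromosome 7 was highest at 4.86% (95% interval 3.73 to 6.21%) and chromosome 1 next at 4.36% (3.50 to 5.36%). Chromosome 12 was lowest at 1.09% (0.498 to 2.05%) and chromosome 10 next at 1.83% (1.05 to 2.95%). The intervals of the upper 2 chromosomes do not overlap those of the lower 2. Chromosome 2 had a share of 3.17%, close to that of all chromosomes. Its extent, measured to the last anchor, was 55.1 Mb, and it had the most multi-loop bins per Mb, 1.05, against 0.928 on chromosome 1 and 0.128 on chromosome 12.

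Along the chromosomes, multi-loop bins followed the other anchors toward the ends. Taking the first and last 20% of each extent as the ends, 85.6% of multi-loop bins lay there (95% interval 82.2 to 88.5%; 427 bins), against 83.3% of 2-loop bins (81.7 to 84.7%) and 78.5% of 1-loop bins (77.7 to 79.2%). Over all anchor bins the share was 79.5%. The share of multi-loop bins varied with the shortest loops. Without the 10 kb loops, 79.7% of the 231 multi-loop bins left lay at the ends (95% interval 73.9 to 84.7%). No matching share was taken for the other anchor bins without those loops. The share of multi-loop bins at the ends exceeded that of bins in 1 or 2 loops on 9 of 12 chromosomes. The exceptions were chromosomes 5, 8 and 12. The interior held 72 multi-loop bins, of which 20 were on chromosome 2, 11 on chromosome 1 and 10 on chromosome 3. No multi-loop bin of chromosome 10 lay in the interior, and a stretch of 53.7 Mb of that chromosome, from 3415001 to 57130000, held none.

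Cutting each extent into 10 equal parts showed that the last parts held the highest shares. Part 9 held 127 multi-loop bins, 4.02% of its anchor bins, and part 10 held 179, or 3.48%. The opposite end was less rich, with 107 bins or 3.22% in part 1 and 14 bins or 1.86% in part 2. The lowest share was in part 5, where 2 of 270 anchor bins (0.741%) were in 3 or more loops.

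**Figure D1:**
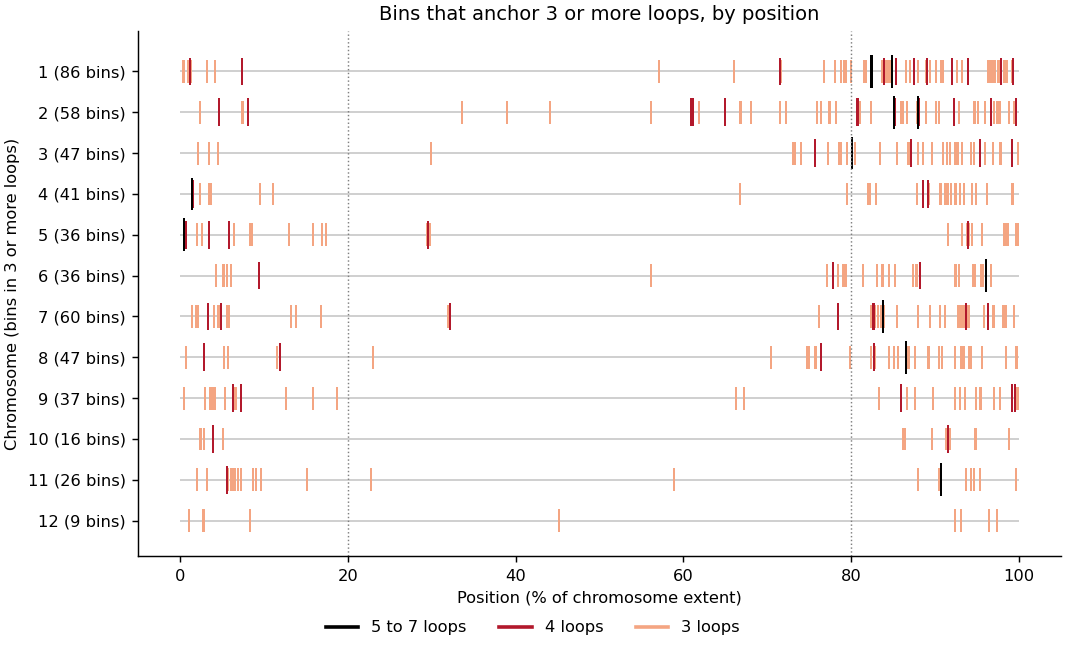
Position of each of the 499 bins in 3 or more loops, as a percentage of the extent of its chromosome, with chromosomes down the page and dotted lines at 20% and 80%. Colour gives the number of loops at the bin; most marks lie outside the dotted lines, and chromosomes 10 and 12 carry 16 and 9.

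Multi-loop bins were also counted in windows of 1 Mb. Of 796 full windows, 204 held a multi-loop bin and 115 held 2 or more. No such count was made for bins in 1 or 2 loops, and 79.5% of all anchor bins lay at the chromosome ends. Crowding beyond that of anchor bins in general is thus not shown. The fullest windows held 10 multi-loop bins each, at 3 to 4 Mb and at 56 to 57 Mb of chromosome 7. They differed in their other anchors: the first had 65 anchor bins in all and the second 47. Windows at 77 to 78 Mb of chromosome 1 and at 57 to 58 Mb of chromosome 8 followed with 8 each.

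The share of bins in 3 or more loops was higher where more other loops ended nearby. Other loop ends were counted within 500 kb of each anchor bin, leaving out the bin's own loops. The median was 75 around multi-loop bins, 73 around 2-loop bins and 65 around 1-loop bins. Anchor bins were split by this number into 5 classes of similar size. In the sparsest class, with up to 30 other loop ends, 1.59% were multi-loop bins (95% interval 1.18 to 2.09%). The share was 2.84% in the next class and 3.73% (3.11 to 4.43%) in the middle one. It was 3.94% in the class above and 3.95% (3.28 to 4.72%) in the densest, with 93 to 137 other loop ends, so the upper 3 classes overlap in their intervals. The share of 2-loop bins rose over the same classes, from 11.2% in the sparsest to 19.0% in the densest, so the rise was not particular to multi-loop bins. Chromosome 7 had a higher share than the other chromosomes pooled in all 5 classes, from 7 of 236 bins (2.97%) against 1.48% in the sparsest to 13 of 291 bins (4.47%) against 3.90% in the densest. It was the chromosome with the highest share to begin with, so these values in part restate that. No intervals were taken for it within classes.

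Closer in, the ends of other loops were most frequent 10 to 15 kb from a multi-loop bin, averaged over both sides. There, 5 kb bins held a mean of 0.466 ends of other loops beside multi-loop bins, against 0.324 beside 2-loop bins and 0.277 beside 1-loop bins. At 20 to 45 kb the means were 0.395, 0.351 and 0.311 in that order. At 50 to 100 kb the means were 0.369, 0.351 and 0.310 for the same order of bins. The bin directly next to a multi-loop bin held fewer, 0.326 on average, against 0.256 beside 2-loop bins and 0.268 beside 1-loop bins. The list holds no pair of loops that share an anchor and end in adjacent bins, since neighbouring partners on 1 side of a bin were never closer than 10 kb. How calls in adjacent bins were handled is not given in the sources used here.

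**Figure D2:**
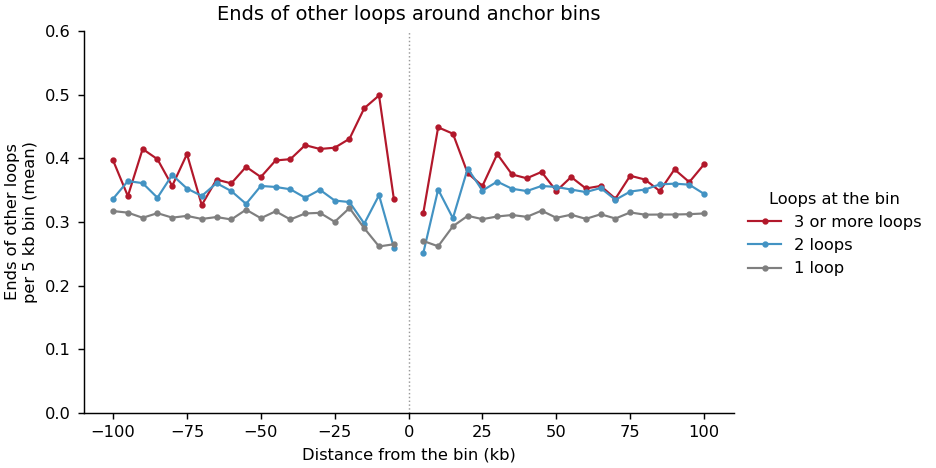
Mean number of ends of other loops per 5 kb bin, against the distance in kb from an anchor bin in 3 or more loops, 2 loops or 1 loop, leaving out the bin's own loops. The curve for 3 or more loops is highest 10 to 15 kb away, where its mean is 0.466, and drops in the adjacent bin.

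The loops of multi-loop bins were of intermediate span. Their median was 35 kb (95% interval 35 to 40 kb; quartiles 10 and 80 kb; 1457 loops), against 20 kb (15 to 20 kb; quartiles 10 and 55 kb; 8116 loops) for loops that touched none. The median was longer on 12 of 12 chromosomes, with the widest gap on chromosome 8, 60 kb against 25 kb, and the narrowest on chromosomes 5 and 12. At the ends the medians were 35 and 15 kb, and in the interior 80 kb (60 to 100 kb) and 65 kb (60 to 75 kb), for loops at multi-loop bins and for other loops in that order. The interior intervals overlap.

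The gap in medians varied with the treatment of the shortest loops. Loops of 10 kb, the shortest listed, made up 25.2% of loops at multi-loop bins (95% interval 23.0 to 27.5%), 39.3% of loops at a 2-loop bin and no multi-loop bin (37.8 to 40.9%), and 47.5% of loops between 1-loop bins (46.0 to 49.0%). A bin can hold at most 2 loops of 10 kb, 1 on each side, which caps this share at bins in 3 or more loops. Counted per bin, a 10 kb loop was present at 306 multi-loop bins, or 61.3%, at 60.4% of 2-loop bins and at 44.5% of 1-loop bins, against 47.6% of all anchor bins. A bin in more loops has more chances to hold such a loop, so these shares are not like-for-like. Both sides held one at 75 multi-loop bins (15.0%) and at 13.9% of 2-loop bins. With the 10 kb loops left out of the medians, these were 50 kb at multi-loop bins and 45 kb elsewhere. With them left out before loops per bin were counted, which leaves 231 multi-loop bins, they were 75 and 45 kb.

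Among loops longer than 10 kb, the multi-loop bins had more of middle range, and fewer over 200 kb than there were between 1-loop bins. Spans of 45 to 200 kb made up 47.8% of these loops at multi-loop bins (95% interval 44.8 to 50.8%), 35.9% at 2-loop bins (33.9 to 37.9%) and 34.5% between 1-loop bins (32.5 to 36.4%). The shares over 200 kb were 10.7% (8.96 to 12.7%), 12.5% (11.2 to 13.9%) and 23.9% (22.2 to 25.7%) in the same order. The intervals at multi-loop and 2-loop bins overlap. Loops over 500 kb numbered 25 at multi-loop bins, 1.72% of their loops, against 294 or 3.62% of the others.

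**Figure D3:**
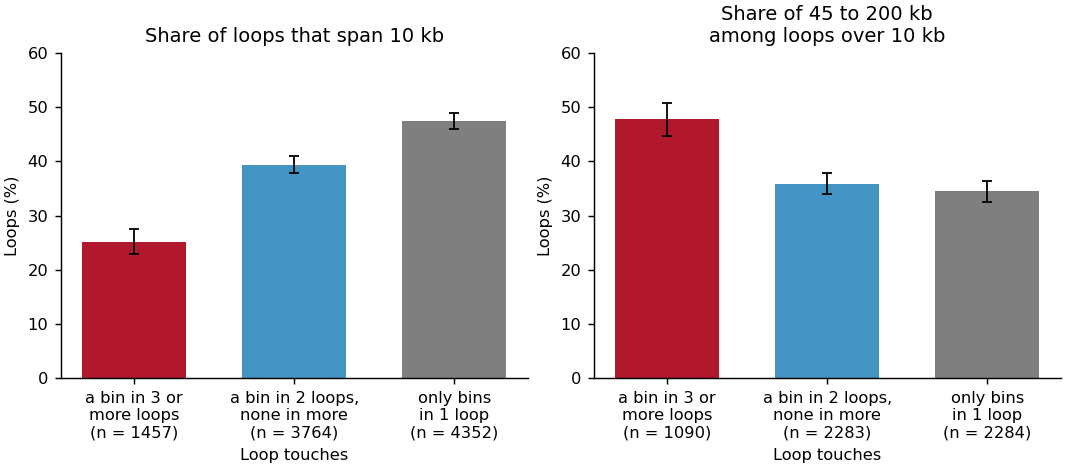
Share of loops that span 10 kb (left) and share that span 45 to 200 kb among loops over 10 kb (right), by the most-used bin the loop touches; bars give percent and error bars the exact 95% binomial interval. Loops at bins in 3 or more loops have 25.2% at 10 kb and 47.8% at 45 to 200 kb.

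The spans of the loops at 1 bin varied. The median of the shortest loop at a bin was 10 kb, and the median of the longest was 65 kb, with quartiles of 40 and 135 kb. At 2-loop bins these medians were 10 and 35 kb. The longest of several loops tends to be longer than the longest of few, so these values are not a like-for-like comparison. From its lowest to its highest partner a multi-loop bin reached over a median of 80 kb, and the bins in 5 or more loops over 180 kb. In 40 multi-loop bins (8.02%) every loop was over 100 kb, against 8.90% of 2-loop bins and 17.9% of 1-loop bins. A bin in more loops has more loops that must all pass this limit, so these shares are not like-for-like either. The longest loop at a multi-loop bin, 975 kb, ran to higher positions from the bin 1325001 to 1330000 of chromosome 2. That bin had a further loop of 960 kb to the same side, ending 15 kb short of the first, and 1 of 35 kb to the other. The widest reach was 1500 kb, at 12825001 to 12830000 of chromosome 9, with loops of 840 and 65 kb to lower positions and 660 kb to higher ones.

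Multi-loop bins had loops to both sides or to 1 side only. Loops ran to both sides from 332 multi-loop bins, or 66.5% (95% interval 62.2 to 70.7%), and from 51.3% of 2-loop bins (49.3 to 53.3%), against 53.9% of both kinds together. Without the 10 kb loops, 43.3% of the 231 multi-loop bins left were two-sided (36.8 to 49.9%). From 88 multi-loop bins all loops went to higher positions and from 79 all to lower ones, so neither direction along the chromosome stood out. Nor did loops of multi-loop bins at the chromosome ends favour the centre, since 666 of 1365 (48.8%) went toward it. At 2-loop bins there the share was 50.8%. Of the one-sided multi-loop bins at the ends, 65 pointed to the centre of the chromosome and 75 to its end. As many as 203 multi-loop bins (40.7%) had at least 3 loops to the same side, 29 had at least 4, and the most was 6.

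Because a bin in many loops has more chances to be two-sided, sides were also compared over pairs of loops at a bin. At multi-loop bins 42.1% of 1799 pairs lay on opposite sides (95% interval 39.8 to 44.5%), against 51.3% of the 2484 pairs at 2-loop bins (49.3 to 53.3%). The difference of −9.19 percentage points was of this sign on 11 of 12 chromosomes, and chromosome 12, with 27 pairs at its 9 multi-loop bins, was the exception. A pair of 10 kb loops at a bin is always opposite, since each side holds at most 1. Such pairs made up 75 of the 1799 at multi-loop bins and 346 of the 2484 at 2-loop bins. Part of the difference is thus built into this measure, which is not a like-for-like comparison. The size of the difference varied with the loops counted. Among pairs without a 10 kb loop, 31.0% were opposite at multi-loop bins (28.2 to 33.9%; 1047 pairs) and 31.1% at 2-loop bins (28.2 to 34.1%; 984 pairs). Longer loops at a shared bin thus ran mostly to the same side in both kinds of bin. With the 10 kb loops left out before loops per bin were counted and 231 bins still above the limit, the difference was −4.50 percentage points (95% interval −8.56 to −0.453). Over all pairs it was −1.71 percentage points (−5.95 to 2.52) with loops within 2 bins of each other merged and −9.01 (−17.3 to −0.759) with loops within 4 bins merged.

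**Figure D4:**
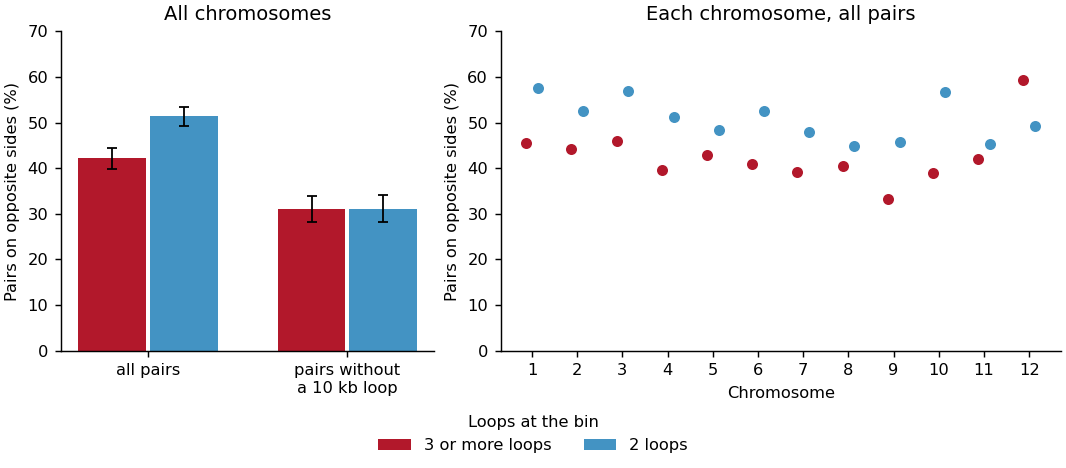
Share of loop pairs at a bin that lie on opposite sides, for bins in 3 or more loops and in 2 loops: over all chromosomes with exact 95% binomial intervals (left), and for each chromosome over all pairs (right). Without 10 kb loops the shares are 31.0% and 31.1%. Over all pairs, 11 of 12 chromosomes have the lower share at bins in 3 or more loops, but pairs of 10 kb loops are always opposite.

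Partners on the same side were closely spaced. Between neighbouring same-side partners the median distance was 20 kb at multi-loop bins (quartiles 15 and 40 kb; 760 distances) and 20 kb at 2-loop bins (quartiles 15 and 45 kb; 1209 distances). Distances of at most 20 kb made up 52.5% (95% interval 48.9 to 56.1%) at multi-loop bins and 50.7% (47.8 to 53.6%) at 2-loop bins, so the intervals overlap.

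The busiest bin lay on chromosome 7, from 57355001 to 57360000, and its 7 loops formed a fan on both sides. Partners lay 65, 80 and 135 kb toward lower positions and 70, 90, 105 and 130 kb toward higher ones. No partner was nearer than 65 kb. Of the 7 partners, the one 105 kb away was itself a multi-loop bin, in 3 loops.

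Chromosome 1 carried 4 of the 13 bins in 5 or more loops, and 3 of them lay close together, between 76375001 and 76460000. The bin 76375001 to 76380000 had 6 loops, all to higher positions, over 60, 85, 105, 115, 185 and 390 kb. The bin 76420001 to 76425000 had 5, again all to higher positions, over 10, 75, 100, 120 and 140 kb. Its farthest partner, at 76560001 to 76565000, was also the 185 kb partner of the 6-loop bin. Next came 76455001 to 76460000, with loops of 20, 70 and 90 kb to lower positions and of 55 and 70 kb to higher ones. The 55 kb partner was a bin in 4 loops, at 76510001 to 76515000. These 4 bins lay within 140 kb and used 19 loops, of which only 1 joined members of the group. The other busy bin of the chromosome, at 78715001 to 78720000, had loops of 50, 120, 135 and 150 kb to lower positions and 1 of 10 kb to higher ones.

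The remaining busy bins were in 5 loops each, and those of chromosomes 4, 5 and 8 had all their loops on 1 side. On chromosome 4 the bin 930001 to 935000 had loops of 10, 20, 75, 85 and 95 kb, all to higher positions. On chromosome 5 the bin 270001 to 275000, near the start of the chromosome, had loops of 10, 35, 45, 60 and 185 kb to higher positions. The bin 57740001 to 57745000 of chromosome 8 likewise pointed only to higher positions, over 10, 160, 185, 205 and 220 kb. In all, 5 of the 13 bins were one-sided, and all 5 pointed to higher positions. This did not extend to bins in 4 loops, of which 6 pointed only to higher positions and 11 only to lower ones. Over all multi-loop bins these counts were 88 and 79. On chromosome 6 the bin 50210001 to 50215000 had loops of 20, 30, 45 and 55 kb to lower positions and 1 of 10 kb to higher ones. On chromosome 11 the bin 53990001 to 53995000 had loops of 55, 65, 80 and 90 kb to lower positions and 1 of 25 kb to higher ones. The same form, with 4 loops on 1 side and 1 on the other, was seen on chromosome 2 for 46895001 to 46900000 and for 48435001 to 48440000. The first had loops of 10, 75, 130 and 330 kb to higher positions and 25 kb to lower ones. The second had loops of 55, 80, 95 and 105 kb to higher positions and 75 kb to lower ones.

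Among the bins in 5 or more loops, the most distant partners were on chromosome 3. The bin 53540001 to 53545000 had loops of 400, 435, 445 and 490 kb to lower positions, so that 4 partners lay within 90 kb of each other, and 1 of 70 kb to higher positions. All 13 bins lay in the chromosome ends, where 79.5% of all anchor bins lay, although this one was at 80.2% of its extent. A 10 kb loop was present at 7 of them, or 53.8% (95% interval 25.1 to 80.8%), against 47.6% of all anchor bins. Of the 13, 9 had a loop to another multi-loop bin, against 39.5% of all multi-loop bins. A bin in more loops has more chances of such a partner.

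**Figure D5:**
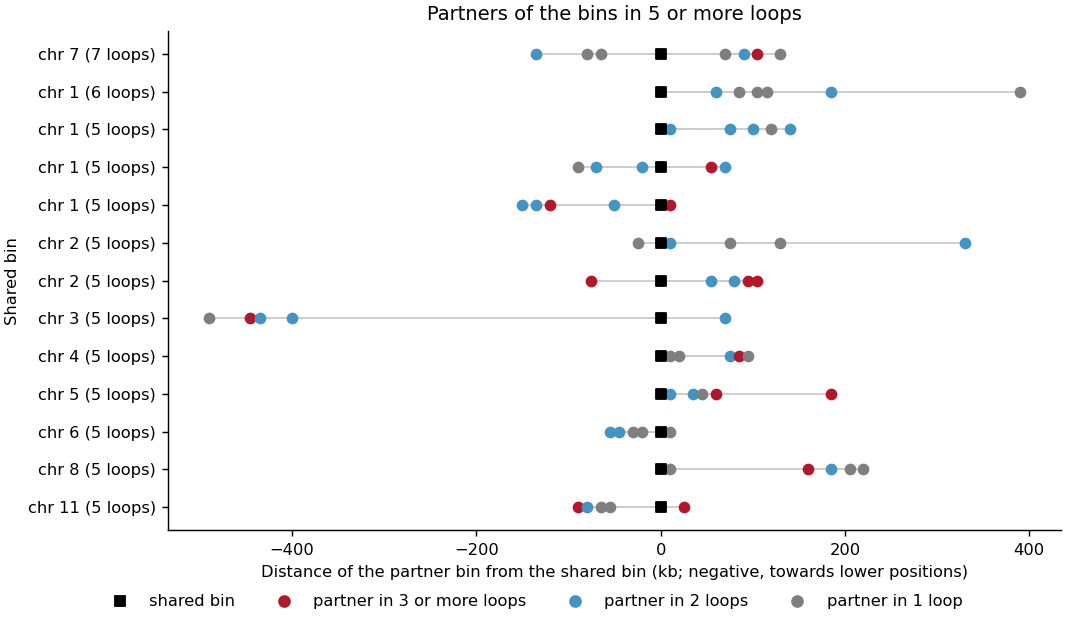
Partners of the 13 bins in 5 or more loops, 1 row per bin, at their distance in kb from the shared bin (black square); colour gives the number of loops at the partner. Of these bins, 5 have partners on the higher side only, and the partners of the chromosome 3 bin at 400 to 490 kb form 1 patch.

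Some multi-loop bins were partners of each other. A loop end in a multi-loop bin had its other end in a multi-loop bin in 16.8% of cases (95% interval 15.0 to 18.8%), against 9.68% for 2-loop bins (8.87 to 10.5%) and 6.69% for 1-loop bins (6.26 to 7.14%). Over all loop ends, 8.31% lay in multi-loop bins. Each multi-loop bin adds to this count by having more loop ends, and the counts at both ends come from the same loops. In all, 134 loops joined 2 multi-loop bins, 9.20% of the 1457 loops that touched one (7.76 to 10.8%). Their median span was 50 kb (40 to 60 kb; quartiles 25 and 105 kb), against 35 kb (30 to 35 kb) for the 1323 loops with 1 multi-loop anchor. Only 14 of the 134 spanned 10 kb, 67 spanned 45 to 200 kb, and the longest was 445 kb. With loops within 2 bins merged, 3.85% of loops at multi-loop bins joined 2 of them.

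These loops tied 197 multi-loop bins (39.5%) to another one, in 74 groups. Most groups were pairs, 44 of them, and 19 had 3 bins. A further 6 had 4 bins, 4 had 5 bins and 1 had 8. Closed triangles, in which 3 bins were all joined to each other, numbered 87 in the list. Multi-loop bins took part in 58 of them, and 10 consisted of multi-loop bins only. In a triangle stood 91 multi-loop bins (18.2%) and 160 2-loop bins (6.44%). A bin in more loops has more pairs of partners that can close a triangle.

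The group of 8 lay on chromosome 7, and its loops ran between facing blocks. At its lower end, 5 multi-loop bins lay between 56410001 and 56455000, each in 3 loops. The other 3 lay at 56560001 to 56565000, 56575001 to 56580000 and 56615001 to 56620000, in 3, 4 and 4 loops. The group was tied by 8 loops of 10 to 195 kb, and 5 of these spanned at least 130 kb. These 5 ran between the blocks, while the loops of 10, 40 and 55 kb stayed within a block. The bin at 56560001 to 56565000 was joined within the group only by the 55 kb loop, to 56615001 to 56620000. In the lower block, 3 of the 5 bins had loops to higher positions only. The bin at 56575001 to 56580000 had all 4 of its loops to lower positions.

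A like arrangement lay on chromosome 8. The bin 57740001 to 57745000, described above, had a direct neighbour at 57745001 to 57750000 with 4 loops of 165 to 280 kb, all to higher positions. Facing them, 4 multi-loop bins lay between 57900001 and 57955000, of which 3 had loops to lower positions only. The bin 57740001 to 57745000 had a loop of 160 kb to 57900001 to 57905000. Its neighbour had a loop of 165 kb to 57910001 to 57915000. The bins 57940001 to 57945000 and 57950001 to 57955000 had no loop to that neighbour or to 57740001 to 57745000. They had loops of 210 and 220 kb to another multi-loop bin, at 57730001 to 57735000. The median span of the 10 loops at the 4 facing bins was 162.5 kb.

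Multi-loop bins formed 90 clusters, with a cluster taken as bins whose neighbouring midpoints lay at most 100 kb apart. The clusters held 249 bins, or 49.9% (95% interval 45.4 to 54.4%), and 250 bins stood alone. No matching share was taken for bins in 1 or 2 loops. Of the clusters 46 had 2 bins, 25 had 3, 13 had 4 and 6 had 5. The share in clusters was 27.2% with loops within 2 bins merged. Chromosome 1 had 21 clusters with 58 bins, chromosomes 2 and 7 had 10 clusters each, and chromosome 12 had 0. Of the 134 loops between multi-loop bins, 105 (78.4%) stayed within a cluster. Any such loop of at most 100 kb does so by the definition of a cluster, and the upper quartile of their spans was 105 kb. This share therefore restates their spans. Between neighbouring multi-loop bins the median gap was 265 kb, with quartiles of 60 and 830 kb. Directly adjacent bins made up 7 such pairs. In 25 pairs the midpoints were 10 kb apart, and 14 of these pairs were joined by a 10 kb loop.

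The 6 clusters of 5 bins differed in the kind of loop they held. The cluster from 2260001 to 2420000 of chromosome 4 was made of short loops, with a median of 15 kb, 6 of 12 loops at 10 kb and none over 80 kb. Loops ran to both sides from 4 of its 5 bins. The cluster from 48360001 to 48545000 of chromosome 2 had no 10 kb loop, and its 14 loops spanned 45 to 180 kb with a median of 90 kb. Its outer bins pointed inward: 48360001 to 48365000 had 3 loops to higher positions only, and 48540001 to 48545000 had 4 to lower positions only. In between lay the 5-loop bin named above.

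On chromosome 3, from 61725001 to 61935000, none of the 5 bins was two-sided, and its 13 loops had a median of 45 kb. Chromosome 7 held 2 of the 6, at 56410001 to 56455000, with a median span of 140 kb, and at 63530001 to 63635000, with a median of 67.5 kb. The first, at 45 kb, was the narrowest of the 6. The cluster of chromosome 1, from 87075001 to 87140000, had 13 loops with a median of 45 kb, but the longest, from its first bin, spanned 955 kb.

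Chromosome 12, with the lowest share, had 9 multi-loop bins of 3 loops each, and no pair of them lay within 100 kb. Of these, 8 had no loop over 75 kb. The exception lay in the interior, at 31790001 to 31795000, with 3 loops to lower positions of which the shortest was 255 kb and the longest 790 kb. On chromosome 10 the 16 bins formed 3 clusters, and 2 of the bins were in 4 loops. One of these, at 2580001 to 2585000, had all 4 loops to lower positions within 45 kb, and the other, at 60630001 to 60635000, had loops to both sides of up to 170 kb.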

How the data were processed

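Hi-C of 2 inflorescence replicates was deposited as 1 loop list. Per the submitters' processing notes, the tools of the series included BWA, SAMtools and HiC-Pro 3.1.0, and the name of the deposited list gives FitHiC at 5 kb. How the caller was set, which assembly was used and whether replicates were pooled are not given in the labels or the list. The authors deposited only the midpoints in bp of both anchor bins of each loop, with no score or other measured unit. Here each loop was counted once at each anchor, and bins in 3 or more loops were kept. Bins were compared with bins in 1 or 2 loops as a description, using Python 3.11.15, pandas 2.3.3, SciPy 1.17.1 and networkx 3.6.1. The counting was checked on a simulated list with planted bins. Named bins are those with 5 or more loops, those of the largest clusters (6 tied), and those with the longest loop and the widest reach; groups of joined bins, 2 clusters of 4, and bins of chromosomes 10 and 12 were named after their values were seen. The members and measures were chosen with earlier results of these data known. Leaf ATAC-seq peaks carry SL4.0 sequence names and were not overlaid.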

Additional observations from a re-analysis of the deposited data

How the results depend on the processing

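The alternatives for the differences in sides and in median span, and merging within 4 bins, were chosen after seeing the data. Multi-loop bins numbered 231 without 10 kb loops, 224 with loops within 2 bins merged, 52 with loops within 4 bins merged and 2864 when anchors in adjacent bins were counted as the same. Without 10 kb loops, 79.7% lay at the chromosome ends, the median span was 75 kb, 43.3% were two-sided and 37.7% lay in clusters. With loops within 2 bins merged, the median span was 45 kb, 73.2% were two-sided, 3.85% of loops joined 2 multi-loop bins and 27.2% of bins lay in clusters. With a limit of 4 loops, the values were 50 kb, 71.8%, 2.5% and 30.8% in that order, and with a limit of 2 loops they were 25 kb, 53.9%, 25.6% and 86.6%. With ends of 10% on each side, 57.3% lay at the ends. Clusters held 38.5% with gaps of up to 50 kb and 63.5% with gaps of up to 200 kb. The difference in opposite-side pairs, −9.19 percentage points as reported, was −4.50 with 10 kb loops left out before counting, −0.0565 among pairs without a 10 kb loop, −1.71 with loops within 2 bins merged, −9.01 with loops within 4 bins merged and −3.08 in the interior. The difference in median span, 15 kb as reported, was 30 kb with 10 kb loops left out before counting and 5 kb with them left out of the medians. Of 42 alternative values, 13 lay within the interval of the reported value, and none of the 13 values of these 2 differences had the other sign. Several had intervals that ran from negative to positive, so their sign is not settled. For opposite-side pairs these were −0.0565 (−4.08 to 3.97), −1.71 (−5.95 to 2.52) and −3.08 (−10.9 to 4.72) percentage points. For median span they were 5 kb (−5 to 10 kb) and the interior value of 15 kb (−15 to 40 kb). The cause was not tested. No paired analysis was possible because the list has no columns per replicate, which also prevented leaving either replicate out. Depth is unknown, so a bin in few or no loops says nothing about the limit of detection.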
